A study of Raphidocelis subcapitata with 72 samples.

Results

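The genes described here are 78 of the 12181 genes counted in the green alga Raphidocelis subcapitata. Their levels were high in cultures labelled control, and low in cultures labelled with either of 2 kinds of iron nanoparticle, at both 4 h and 1 h. They were chosen from measured levels. A gene was kept if its mean over the 6 groups lay from 5 to below 1000 CPM (counts of a gene scaled to a common library size). The mean of each particle group, as log2(CPM + 1), also had to lie below that of labelled control by at least 0.8 at 4 h and at least 1 at 1 h. Of the 7594 genes at that level, 107 met both 4 h thresholds and 201 both 1 h thresholds, and 78 met all 4.

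The alga is a freshwater unicell that is widely grown as a test organism in ecotoxicology. Nanoscale zero-valent iron (nZVI) is metallic iron, a reducing agent that corrodes in water and releases dissolved iron, whereas magnetite (nFe3O4) is an iron oxide that is already partly oxidised. Iron is at once a nutrient of algae, as a cofactor of photosynthetic and respiratory proteins, and a source of reactive oxygen when in excess.

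All cultures were of strain ATCC 22662, in mid-log growth in Sueoka's high salt medium under constant white light with air and CO2 bubbling. One set received 100 mg/L nZVI, another 100 mg/L nFe3O4, and the control set no particles; each was sampled for RNA at 4 h and 1 h. The groups are therefore nZVI, nFe3O4 and control at 4 h, and the same at 1 h, each labelled with 3 replicates sequenced as 4 lanes. In nFe3O4 at 1 h, replicate 2 held in all 4 of its columns the values of 1 lane of replicate 1, so it was left out. The 17 libraries that remained had 26322767 to 43364641 counts each. Whether replicates began from separate inocula is not labelled, and the p-values cover only the spread among these libraries, which may be technical.

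The names control and nZVI are exchanged between the deposited tables. Over 49 genes present in both the count table and the authors' transformed table, 12 of 12 libraries headed control or nZVI matched best the library of the other name with the same hour and replicate number. Pearson's r across these genes was 0.945 to 0.991 with the exchanged name, against -0.779 to 0.432 with the library's own name. The headings of the count table are used here, written "labelled nZVI" and "labelled control", and every direction between those groups depends on them. The words "particle libraries", "particle groups" and "the particles" follow the same headings, so the labelled nZVI cultures among them may have had no particles. If the other tables carry the right names, these genes were high with nZVI and low with nFe3O4 and without particles.

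The files do not pair the RSUB identifiers with gene names, products or positions, so the genes are described by identifier and level, and what they encode is not stated. Their levels spanned a wide range: 32 averaged below 10 CPM over the 6 groups, 34 from 10 to below 50 CPM, and 12 at least 50 CPM. All 78 passed the filter on low counts, with no fewer than 12 counts in any library. Counts are per gene and not per length, so levels are compared between groups and not between genes.

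**Figure D1:**
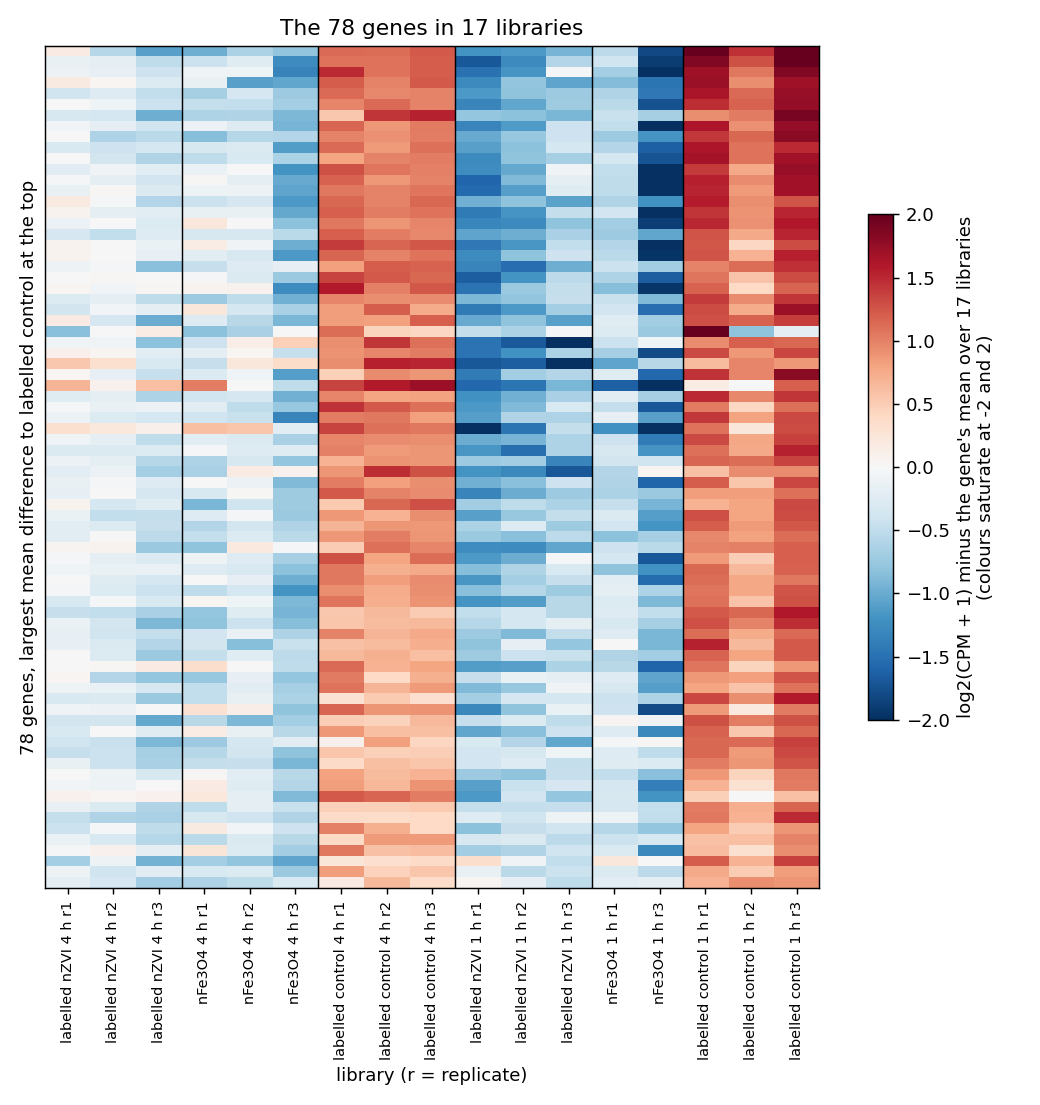
Levels of the 78 genes (rows) in the 17 libraries (columns), as log2(CPM + 1) minus the gene's mean over all libraries; red is above and blue below that mean. The 6 labelled control libraries are red in nearly every row, the 11 particle libraries are mostly blue or near white, and nFe3O4 1 h replicate 3 holds many of the darkest blue cells.

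The contrast that chose the genes is given as a description, with no test. Their median difference from labelled control, on the log2(CPM + 1) scale, was -1.13 in labelled nZVI at 4 h (-1.75 to -0.80 over the genes) and -1.29 in nFe3O4 at 4 h (-1.95 to -0.80). It was -1.93 in labelled nZVI at 1 h (-3.13 to -1.03) and -1.76 in nFe3O4 at 1 h (-3.07 to -1.001). The gap to labelled control was thus smaller at 4 h than at 1 h, for all 78 genes in labelled nZVI and for 70 in nFe3O4, where the rule itself asked for less at 4 h. Every particle library lay below every labelled control library for 78 genes at 4 h and for 77 at 1 h; the same held for 13.3% and 18.8% of all 11841 genes tested. For 72 genes it held over both hours together (11 particle against 6 labelled control libraries), as it did for 4.70% of all genes tested.

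Summed over the 78 genes, the level was 1973, 1798 and 1630 CPM in the labelled nZVI libraries at 4 h, 1881, 1758 and 1258 CPM in the nFe3O4 libraries, and 3971, 4025 and 4140 CPM in the labelled control libraries. At 1 h the sums were 1044, 1135 and 1404 CPM in labelled nZVI, 1412 and 942 CPM in nFe3O4, and 4750, 3427 and 5323 CPM in labelled control. The labelled control libraries were far above the particle libraries at each hour, and the labelled nZVI and nFe3O4 libraries overlapped. Labelled control was tight at 4 h (4045 ± 86.3 CPM, SD, n = 3) and spread widely at 1 h (4500 ± 972 CPM, SD, n = 3). The genes took up 0.103% to 0.197% of all counts in particle libraries, against 0.330% to 0.526% in labelled control libraries. In bulk RNA, fewer cells that hold a transcript and less of it per cell cannot be told apart.

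**Figure D2:**
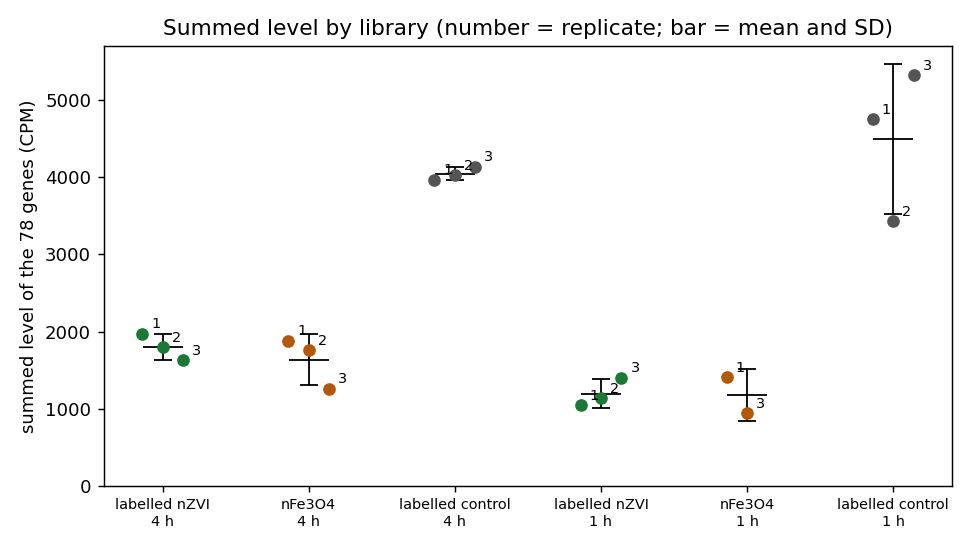
Summed level of the 78 genes in CPM (y axis, from 0) for each library (points, with the replicate number) by group, with the group mean and SD as bars. Labelled control sits at 3427 to 5323 CPM and the particle groups at 942 to 1973 CPM; nFe3O4 at 1 h has 2 libraries.

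The gene with the highest mean, RSUB_05036, had 324, 216 and 307 CPM in the labelled nZVI libraries at 4 h, 414, 204 and 142 CPM in nFe3O4, and 520, 614 and 664 CPM in labelled control. At 1 h it had 67.7, 72.6 and 107 CPM in labelled nZVI, 64.7 and 40.2 CPM in nFe3O4, and 224, 203 and 463 CPM in labelled control. The particle libraries stayed below labelled control within each hour, but those of 4 h reached the range of labelled control at 1 h. The next, RSUB_02577, averaged 96.9 ± 10.7 CPM in labelled nZVI, 86.0 ± 36.0 CPM in nFe3O4 and 277 ± 40.6 CPM in labelled control at 4 h (SD, n = 3 each). At 1 h RSUB_02577 had 39.7, 49.8 and 111 CPM in labelled nZVI, 70.3 and 15.2 CPM in nFe3O4, and 368, 238 and 413 CPM in labelled control. Its particle libraries differed among themselves by several fold without reaching the labelled control range.

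At the other end of the level range, RSUB_09324 had 3.19, 4.48 and 2.99 CPM in labelled nZVI, 5.42, 4.43 and 3.23 CPM in nFe3O4, and 10.4, 8.24 and 6.45 CPM in labelled control at 4 h. RSUB_09395, the next lowest, averaged 2.42 ± 0.892 CPM in labelled nZVI (SD, n = 3), 2.52 ± 1.47 CPM in nFe3O4 (SD, n = 2) and 6.37 ± 1.51 CPM in labelled control (SD, n = 3) at 1 h. In both genes the labelled control libraries of that hour lay above all particle libraries.

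The largest mean difference to labelled control over the 4 contrasts was that of RSUB_04817, at -2.43 on the log2(CPM + 1) scale. It had 4.00, 2.02 and 1.11 CPM in labelled nZVI, 1.28, 1.88 and 1.60 CPM in nFe3O4, and 8.83, 8.70 and 9.43 CPM in labelled control at 4 h. At 1 h it had 0.962, 1.01 and 1.36 CPM in labelled nZVI, 2.12 and 0.288 CPM in nFe3O4, and 19.2, 11.4 and 21.97 CPM in labelled control. Each labelled control library was above every particle library, by the widest margin at 1 h. RSUB_01703 followed with a mean difference of -2.19, from means of 18.1 CPM in labelled nZVI, 14.4 CPM in nFe3O4 and 49.5 CPM in labelled control at 4 h.

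The smallest mean differences were those of RSUB_07388 (-0.94) and RSUB_04650 (-1.03). RSUB_07388 was also the gene nearest inside the thresholds, with a difference of -0.8002 between labelled nZVI and labelled control at 4 h. The next nearest inside was RSUB_08901, with -1.001 between nFe3O4 and labelled control at 1 h. Just outside, RSUB_03843 missed with -0.797 and RSUB_01065 with -0.791, both between labelled nZVI and labelled control at 4 h. When each of the 17 libraries was left out in turn, 58 of the 78 genes were chosen every time, 6 were lost in 1 setting and 14 in 2 or more; RSUB_07388 was lost in 9.

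One member rested on a single library, and it is named here because of its values. RSUB_05642 had 352, 19.3 and 30.2 CPM in the labelled control libraries at 1 h, against 20.2 to 33.5 CPM in the 5 particle libraries. Replicate 1 held 2178 to 2330 counts in each of its 4 lanes, where replicate 2 held 141 to 165 and replicate 3 held 205 to 242. Replicate 2 lay below all the particle libraries and replicate 3 among them, making this the 1 gene of the 78 whose groups overlapped at 1 h. Without replicate 1, RSUB_05642 was no longer chosen, nor was it without replicate 1 of labelled control or of labelled nZVI at 4 h. At 4 h it did keep labelled control apart, with 18.8, 33.9 and 37.9 CPM in labelled nZVI, 18.9, 21.4 and 34.2 CPM in nFe3O4, and 75.7, 47.1 and 46.2 CPM in labelled control.

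Most of the 78 genes also moved together between libraries of the same group, which the rule, built on group means, did not use directly. Those means come from the same libraries, so the shared movement is not independent of the choice of genes. In nFe3O4 at 1 h, 71 of them were above the group mean in replicate 1 and 7 in replicate 3, with a median deviation of 0.36 and -0.36 on the log2(CPM + 1) scale. Labelled control replicate 2 at 1 h stood low, with 4 genes above its group mean and a median deviation of -0.34, while replicate 3 had 77 above it. Replicate 3 of nFe3O4 at 4 h was low too, with 12 genes above the mean and a median deviation of -0.29. Over all genes tested, the median deviation of each library lay between -0.01 and 0.02.

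As a description, each gene's deviations from its group means were correlated over the 17 libraries with the mean deviation of the other 77. The median Pearson's r was 0.83, 62 genes were above 0.5 and 5 were below 0. Among the 7516 other genes of the same level range, the median r with the mean deviation of the 78 was -0.04, and 12.2% were above 0.5. In a check added after seeing the data, leaving out both nFe3O4 1 h libraries gave a median of 0.80 for the 78 genes, and leaving out the labelled control 1 h libraries as well gave 0.74. The libraries share depth, scaling and composition across all genes, and the deviations of a group sum to 0. The lowest r were those of RSUB_00466 (-0.43), RSUB_08164 (-0.40) and RSUB_02980 (-0.36), so the rise and fall of the others between libraries was not shared by all 78.

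By the median over groups of the coefficient of variation between libraries, RSUB_13042 (36.3%) and RSUB_06248 (35.5%) had the widest spread of the 78; in single groups others were wider, such as RSUB_05642 in labelled control at 1 h. RSUB_13042 had 27.2 and 5.70 CPM in the nFe3O4 libraries at 1 h, where labelled nZVI had 15.7, 18.5 and 36.7 CPM and labelled control 104, 65.8 and 131 CPM. RSUB_06248 had 4.62 and 1.56 CPM in nFe3O4 at 1 h, 1.76, 2.31 and 3.61 CPM in labelled nZVI, and 17.1, 11.3 and 23.0 CPM in labelled control. Even so, in neither gene did a particle library reach the lowest labelled control library of that hour.

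The first comparison that the rule did not use sets the particles against each other. At 4 h none of the 78 genes passed edgeR's quasi-likelihood test at an adjusted p of 0.05 between labelled nZVI and nFe3O4, where 1 of 11841 genes did (0.00845%). An unadjusted p under 0.05 was found for 3 of the 78, all higher in labelled nZVI, and for 7.05% of all genes. DESeq2 also called none of the 78, where it called 0.205% of all genes tested. The fold changes ran from -0.42 to 0.87 (log2), with a median of 0.18 against 0.00 over all genes, and 66 of the 78 were positive against 50.9% of all genes. Without nFe3O4 replicate 3, the low library named above, the median was 0.04.

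At 1 h 3 of the 78 genes (3.85%) passed the test, all lower in labelled nZVI than in nFe3O4. Of all genes, 3.08% passed in either direction, 1.21% higher and 1.87% lower. RSUB_08164 had 6.28, 5.33 and 3.14 CPM in labelled nZVI and 14.2 and 18.1 CPM in nFe3O4, where labelled control had 38.3, 45.3 and 43.9 CPM. The groups did not overlap, and the log2 fold change was -1.71 ± 0.30 (SE, edgeR adjusted p = 0.00885). RSUB_00466 had 3.34, 3.04 and 2.06 CPM in labelled nZVI and 5.57 and 9.32 CPM in nFe3O4, a log2 fold change of -1.40 ± 0.30 (SE, edgeR adjusted p = 0.0232). The third, RSUB_02980, had 11.7, 12.1 and 7.86 CPM in labelled nZVI and 18.9 and 27.0 CPM in nFe3O4 (log2 fold change -1.12 ± 0.29, SE, edgeR adjusted p = 0.0463). These 3 genes are also those named above for the lowest correlation with the rest between libraries. Each was lowest at 1 h in labelled nZVI and intermediate in nFe3O4, with labelled control highest, as the rule required of all 78.

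Those 3 calls rested on few libraries. Fitted on the 2 groups alone, none of the 78 passed (edgeR adjusted p = 0.2005 for RSUB_08164 and 0.2192 for RSUB_00466), and none passed without nFe3O4 replicate 3. Of all genes tested, only 0.0171% and 0.100% passed in these settings, so the loss was not particular to the 78. One passed without labelled nZVI replicate 2 or without its replicate 3, where 1.56% and 1.11% of all genes tested did. Over all 78 genes the median log2 fold change between the particles at 1 h was 0.01, with 42 positive and 36 negative, against 0.02 over all genes. It was -0.36 without nFe3O4 replicate 3 and 0.53 without its replicate 1, so its sign depended on which of these libraries was kept.

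**Figure D3:**
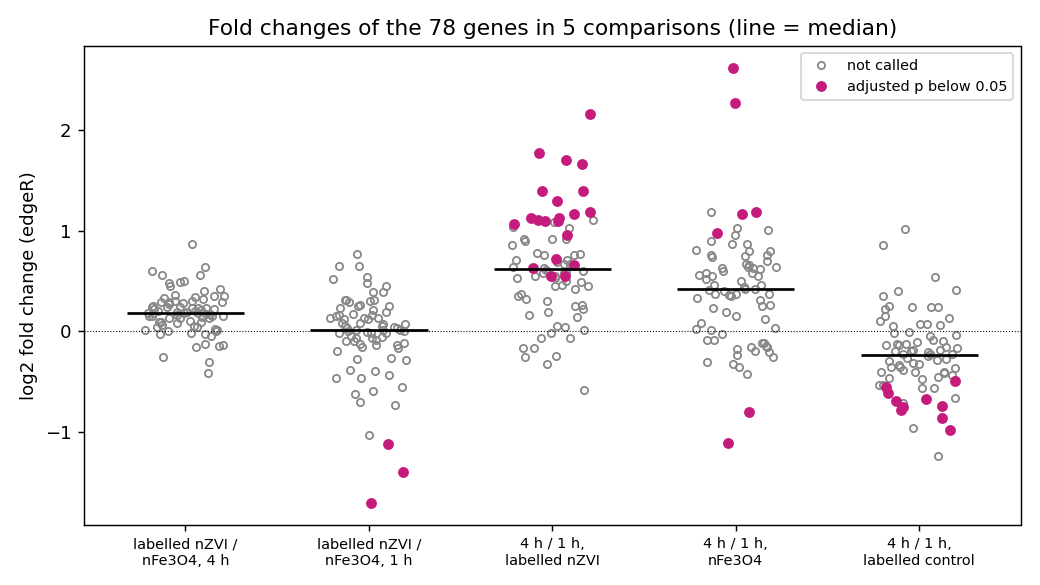
edgeR log2 fold change (y axis) of each of the 78 genes (points) in the 5 comparisons tested (x axis); filled points have an adjusted p below 0.05 and the line is the median. Called genes are 0 and 3 between the particles at 4 h and 1 h, 21 higher at 4 h in labelled nZVI, 5 higher and 2 lower in nFe3O4, and 10 lower in labelled control.

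The remaining comparisons set 4 h against 1 h within each kind of culture. The rule made no such contrast, but it used these same group means and asked for a larger gap at 1 h, so they are not fully independent of it. In labelled nZVI, 21 of the 78 genes rose and none fell, against 17.8% of all genes called in either direction, 8.28% up and 9.54% down. The median log2 fold change was 0.62, with 69 of 78 positive, against -0.01 over all genes, of which 49.4% were positive. RSUB_02980 had 58.8, 50.2 and 32.3 CPM at 4 h and 11.7, 12.1 and 7.86 CPM at 1 h, with no overlap (log2 fold change 2.16 ± 0.27, SE, edgeR adjusted p = 4.83e-05). RSUB_05036, with the values given above, rose by 1.78 ± 0.37 on the log2 scale (SE, edgeR adjusted p = 0.00336). Its log2 fold change in labelled control was 1.01, the highest of the 78 there, and was not called. Rises numbered 9 without labelled nZVI 1 h replicate 1, 12 without its replicate 2 and 27 without its replicate 3. Of all genes tested, 6.44%, 6.36% and 7.21% rose in these settings. Without 4 h replicate 1, 11 of the 78 rose (6.50% of all genes). Without 4 h replicate 2, 12 rose and 1 fell (5.74% and 6.36% of all genes). Without 4 h replicate 3, 22 rose (8.86% of all genes).

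RSUB_08164 and RSUB_00466, lowest in labelled nZVI at 1 h, were among the 21. RSUB_08164 reached 18.1, 18.4 and 10.54 CPM in labelled nZVI at 4 h (log2 fold change against 1 h 1.67 ± 0.28, SE, edgeR adjusted p = 0.000605), where nFe3O4 had 14.3, 21.3 and 27.3 CPM and labelled control 37.6, 53.7 and 42.6 CPM. The particle groups overlapped at 4 h. This comparison and that between the particles at 1 h share the labelled nZVI 1 h libraries. The test of whether the difference between the particles changed with the hour called none of the 78, against 0.388% of all genes, and gave RSUB_08164 a log2 change of 1.29 ± 0.40 (SE, edgeR adjusted p = 0.25). An unadjusted p under 0.05 for that change was found for 9 of the 78 and for 9.94% of all genes.

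In nFe3O4, 5 of the 78 genes rose and 2 fell between 1 h and 4 h, against 12.5% of all genes called in either direction, 5.33% up and 7.19% down. RSUB_12978 had 11.98, 11.6 and 6.30 CPM at 4 h and 2.69 and 0.575 CPM at 1 h, with no overlap (log2 fold change 2.62 ± 0.61, SE, edgeR adjusted p = 0.00992). RSUB_05036 rose by 2.3 ± 0.44 on the log2 scale (SE, edgeR adjusted p = 0.00267). RSUB_08901 had 4.69, 4.26 and 3.37 CPM at 4 h and 9.59 and 8.15 CPM at 1 h (log2 fold change -1.11 ± 0.29, SE, edgeR adjusted p = 0.0196). RSUB_12068 had 5.37, 4.01 and 4.81 CPM at 4 h and 8.72 and 7.86 CPM at 1 h (log2 fold change -0.80 ± 0.20, SE, edgeR adjusted p = 0.0154). All 5 genes that rose in nFe3O4 were among the 21 that rose in labelled nZVI. Of all genes tested, 399 of the 631 that rose in nFe3O4 (63.2%) also rose in labelled nZVI, and the rule chose genes low at 1 h in both particle groups. In labelled nZVI RSUB_12978 rose by 1.70 ± 0.50 (SE, edgeR adjusted p = 0.0274).

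The nFe3O4 calls turned on the 2 libraries of 1 h. Without replicate 1 of that hour 32 genes rose and none fell (5.09% of all genes tested rose), and without replicate 3 none of the 78 passed (4.99% of all genes did); the median log2 fold change, 0.42 with both, was 0.86 and 0.03. On the 2 nFe3O4 groups alone 1 gene passed (4.95% of all genes tested did), and RSUB_12978 had an adjusted p of 0.08403, RSUB_05036 of 0.05933 and RSUB_12068 of 0.06464. Leaving out labelled control 1 h replicate 3 or nFe3O4 4 h replicate 2 gave 4 calls each, 2 up and 2 down. So did leaving out labelled nZVI 4 h replicate 2. In these settings 11.7%, 11.7% and 11.4% of all genes tested were called.

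In labelled control, 10 of the 78 genes fell and none rose between 1 h and 4 h, against 17.1% of all genes called, 8.61% down and 8.52% up. The median log2 fold change was -0.24, with 60 of 78 negative, against 0.01 over all genes. RSUB_00376 had 8.27, 9.83 and 8.43 CPM at 4 h and 17.8, 13.2 and 21.4 CPM at 1 h, with no overlap (log2 fold change -0.98 ± 0.21, SE, edgeR adjusted p = 0.00442). RSUB_08901 had 9.73, 10.4 and 10.8 CPM at 4 h and 20.04, 13.7 and 22.5 CPM at 1 h (log2 fold change -0.86 ± 0.26, SE, edgeR adjusted p = 0.0322). RSUB_08901 and RSUB_12068, the pair that fell in nFe3O4, thus fell in labelled control too, RSUB_12068 by 0.70 ± 0.18 on the log2 scale (SE, edgeR adjusted p = 0.014).

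The fall in labelled control was called for 4 genes without 4 h replicate 1, where 3.58% of all genes tested fell. Without 1 h replicate 3, 4 genes fell and 1 rose, where 5.61% of all genes tested fell and 5.15% rose. Fitted on the 2 labelled control groups alone, 21 fell and 3 rose, where 11.1% of all genes tested fell and 11.7% rose. The 157 genes that met the mirrored rule, low in labelled control at both hours, gave 71 rises and 2 falls in labelled control, 4 rises and 29 falls in labelled nZVI, and 5 rises and 8 falls in nFe3O4. Both lists were cut with a larger gap asked for at 1 h, and the difference between them was not tested.

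**Figure D4:**
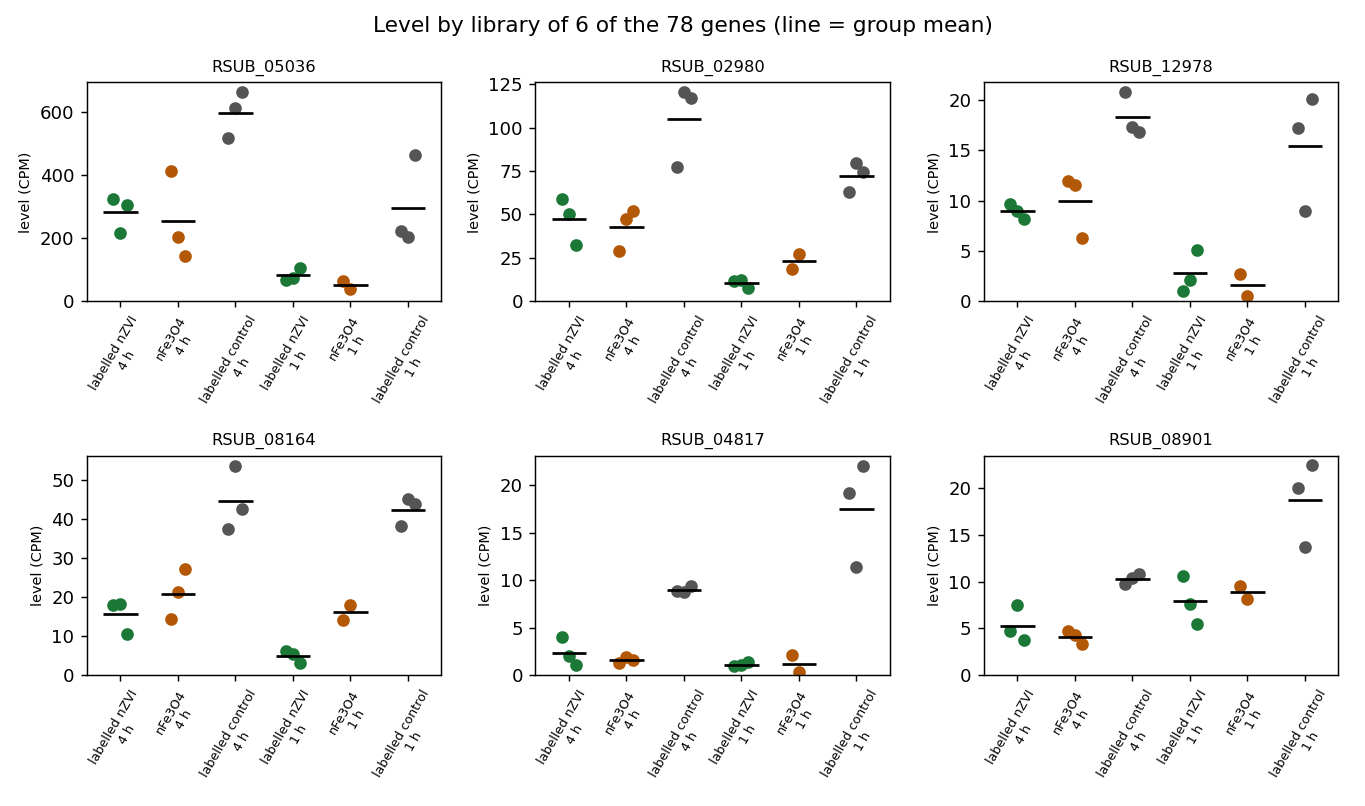
Level in CPM (y axis, from 0) of 6 of the 78 genes in each library (points) by group (x axis), with the group mean as a line. RSUB_05036, RSUB_02980 and RSUB_12978 are higher at 4 h in the particle groups. In labelled control their log2 fold changes were 1.01, 0.54 and 0.25, none of them called. RSUB_08164 is lowest in labelled nZVI at 1 h, and RSUB_04817 has the widest gap to labelled control. RSUB_08901 is lower at 4 h in labelled control and nFe3O4.

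The copied library, nFe3O4 1 h replicate 2, has values of its own in the authors' transformed table, which holds 11 of the 78 genes as regularized log2 values centred on each gene. These 11 are among the 50 genes of highest variance there, so they are no random sample of the 78. The library took no part in choosing the genes. In that table the libraries headed nZVI are those that match labelled control. For all 11 genes, nFe3O4 1 h replicate 2 lay below all 3 libraries headed nZVI at 1 h, by 1.36 to 2.80 under the lowest of them; the same held for 17 of the 39 other genes of the table. Against the libraries headed control at 1 h, it lay below all 3 for 6 of the 11 genes, within their range for 3 and above them for 2. It lay between nFe3O4 replicates 1 and 3 for 9 of the 11, with a median of -1.18, against -0.44 in replicate 1 and -1.57 in replicate 3. RSUB_02577 had -1.68 in this library, -0.59 and -2.44 in nFe3O4 replicates 1 and 3, and 1.75, 1.12 and 1.91 in the libraries headed nZVI. With 1 library no test was made.

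**Figure D5:**
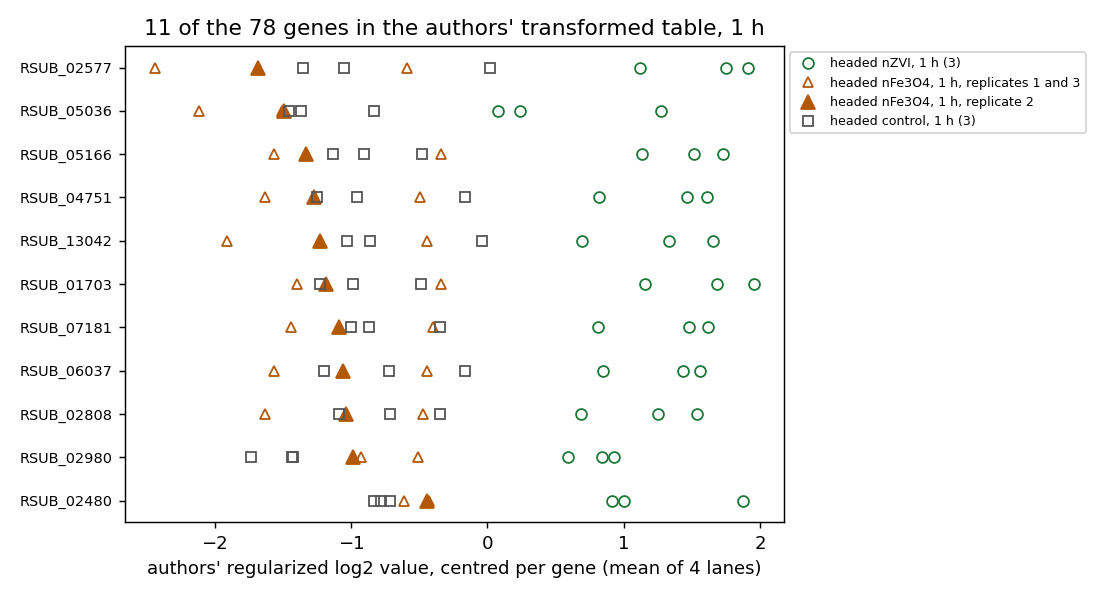
The authors' regularized log2 values (x axis, centred per gene, mean of 4 lanes) at 1 h for the 11 genes (rows) of the 78 in their transformed table, by the headings of that table. Filled triangles are nFe3O4 1 h replicate 2, which was not used in choosing the genes; each lies left of the 3 circles headed nZVI, which match labelled control in the count table.

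The authors' deposited tables of comparisons, in which nZVI stands for the libraries that match labelled control, list only genes under an adjusted p of 0.05. Their comparison of nZVI with control lists all 78 genes at both hours, 77 of them higher in nZVI. The same tables list 46.3% of the 12181 genes at 4 h (24.1% higher) and 60.6% at 1 h (29.7% higher). The 78 had a median log2 fold change of 1.25 at 4 h and 2.07 at 1 h in the authors' deposited tables, a contrast the rule used. In the authors' deposited tables the comparison of nFe3O4 with control lists 12 of the 78 at 4 h (1 higher, 11 lower), against 13% of all genes. At 1 h it lists 26 (11 higher, 15 lower), against 37.8% of all genes. By the exchanged names, that comparison is nFe3O4 against labelled nZVI. For it the fit used here called far fewer genes, 0.00845% of all genes tested at 4 h and 3.08% at 1 h, with 0 and 3 of the 78. Whether the authors' tests took lanes as replicates is not given in the sources used here, and the cause of this gap was not tested. The authors' comparison of nZVI with nFe3O4 matches labelled control against nFe3O4, which the rule also used. It lists all 78 at both hours, 77 of them higher, among 5815 genes listed at 4 h and 6643 at 1 h. The 1 gene with the opposite sign was RSUB_05642, for which the authors' deposited tables give log2 fold changes of -0.31 at 4 h and -0.32 at 1 h between nZVI and control. At 4 h that sign goes against the levels given above, where all 3 libraries of labelled control were the highest. The mean count in the authors' deposited tables was 0.693 times its mean CPM here, against 2.63 to 4.68 times for the other 77 genes, so the values of RSUB_05642 differ between the tables beyond the exchanged names. These tables come from the same cultures and are no independent evidence of the direction.

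Few of the genes had neighbouring identifiers. Only RSUB_07180 and RSUB_07181 carried consecutive numbers, and 4 of the 78 had another within 5 numbers; the files do not tie these numbers to positions. At 4 h RSUB_07180 averaged 5.09 ± 1.03 CPM in labelled nZVI, 4.15 ± 1.74 CPM in nFe3O4 and 10.9 ± 2.02 CPM in labelled control (SD, n = 3 each). RSUB_07181 averaged 17.8 ± 2.25 CPM in labelled nZVI, 15.5 ± 4.47 CPM in nFe3O4 and 43.2 ± 4.64 CPM in labelled control (SD, n = 3 each). The neighbours by number that were not chosen and lay in the same level range, 76 genes, had a median of the mean difference to labelled control of -0.032, against -0.0022 over all genes of that range.

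In 2 pairs of neighbours, chosen after their values were seen, a gene of the 78 stood beside one of the mirrored rule. These were 2 of the 76 neighbours, where 157 of all 7594 genes of that range met the mirrored rule. Of the 76 neighbours, 7 had all 4 differences at 0.5 or more, against 6.57% of all genes of that range. All 4 were at -0.5 or less for 5 of them, against 3.50% of all genes of that range. RSUB_09260 is one of the 78, and the next number, RSUB_09261, averaged 28.5 CPM in labelled nZVI, 28.6 CPM in nFe3O4 and 3.28 CPM in labelled control at 4 h. At 1 h RSUB_09261 averaged 27.1 CPM in labelled nZVI, 24.5 CPM in nFe3O4 and 1.60 CPM in labelled control. In the other pair, RSUB_06448, the number after RSUB_06447, averaged 9.30 CPM in labelled nZVI, 8.19 CPM in nFe3O4 and 1.95 CPM in labelled control at 4 h. The library kit keeps strand, but whether counting used it is not given in the sources used here. Whether these neighbours overlap, or share reads, was not tested.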

How the data were processed

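Per the labels' protocols, stranded libraries of poly(A) RNA were sequenced as read pairs. The submitters' processing notes name bcl2fastq, Trimmomatic, HISAT2, SAMtools, bedtools 2.27.1, DESeq and DESeq2. The genome build, the annotation and the way of counting were not given in the sources used here. Per the file headers, the authors deposited unnormalized counts, whole numbers for each gene and lane. Of the lane counts from 1 to 20, 63.4% were even, so a count may be of reads rather than pairs. Other deposited tables hold regularized log2 values of 50 genes, and the authors' DESeq2 output with log2 fold changes, a Wald score, p-values and other values (mean count, standard error), per the file headers.

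Here the 4 lanes of a library were summed, the copied library was left out, and CPM was computed with TMM scaling in edgeR 4.0.16 (R 4.3.3). The level rule used a pseudocount of 1 CPM. Tests were edgeR's quasi-likelihood test on 6 group means and 17 libraries after filterByExpr (11841 genes), with Benjamini-Hochberg adjustment over all of them and a threshold of 0.05. The fit was tested on simulated data. Alternatives were DESeq2 1.42.0, RLE scaling, no filter, the groups compared alone, a replicate block, and each library left out. Precision is limited by 3 libraries a group, and by 2 for nFe3O4 at 1 h.

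The members, and the genes and tests reported, were chosen with earlier results of these data known. Genes named are, for each comparison, up to 2 called rises and 2 called falls of largest size; the pairs with the highest and lowest level, the largest and smallest difference, the nearest to the thresholds and the widest spread; the longest run of numbers; and up to 2 in the transformed table. Others are said to be chosen after their values were seen. Lists by gene product were not run, since no product names were used here.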

Additional observations from a re-analysis of the deposited data

How the results depend on the processing

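The rule chose 69 to 82 genes when each library was left out in turn, 81 with RLE scaling, 82 with a pseudocount of 0.5 CPM, 76 (70 of them among the 78) from lane 1 alone and 76 with the copied library kept. Between labelled nZVI and nFe3O4 the count of genes called was 0 at 4 h under every alternative run. Of all genes tested, 0.00845% were called there in the main fit and 0.205% with DESeq2. At 1 h it was 3, where 3.08% of all genes tested were called. It was 0 to 4 when a library was left out (0.100% to 3.48% of all genes) and 0 on the 2 groups alone (0.0171%). The median log2 fold change at 1 h was -0.36 to 0.53 over the libraries left out. For 4 h against 1 h, counts with a library left out were 9 to 32 in labelled nZVI (21 with all libraries) and 0 to 32 in nFe3O4 (7). In labelled control they were 4 to 12 (10). Of all genes tested, 12.1% to 18.2%, 4.99% to 13.7% and 8.17% to 18.6% were called in these settings. On the 2 groups alone the count was 26 in labelled nZVI, 1 in nFe3O4 and 24 in labelled control. Of all genes tested, 11.8%, 4.95% and 22.8% were called there. DESeq2, RLE scaling and no filter kept each count within 1.5 times. The cause of these shifts was not tested.

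Libraries share replicate numbers across groups, but not every same-numbered pair deviated together, so the numbers are not taken as pairing: the correlations were 0.391, -0.0429 and 0.569 across the hours in labelled nZVI, 0.155, 0.0548 and 0.0103 in labelled control, -0.455, 0.00114 and -0.484 between the particles at 4 h, and, with only 2 pairs, 0.525 and 0.731 across the hours in nFe3O4 and -0.598 and -0.531 between the particles at 1 h. With a replicate block, 0 and 2 of the chosen genes were called between the particles at 4 h and 1 h. The shares of all genes tested were 0.00845% and 2.10%. Between the hours, 19, 6 and 10 of the chosen genes were called in labelled nZVI, nFe3O4 and labelled control. The shares of all genes tested were 16.5%, 11.6% and 14.9%. Each of the chosen genes had at least 12 counts in each library, and the number of libraries limits the precision.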
